A study of Mus musculus with 9 samples.

Results

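Receptors for the constant part of immunoglobulin G (IgG) were followed in hippocampal RNA of mice that had all been given an antibody. The set holds 4 of the 14779 genes in the deposited table, chosen by name through their Ensembl identifiers: Fcgrt, Fcgr3, Fcer1g and Fcgr2b. The 9 libraries of polyadenylated RNA fall into 3 groups of 3, and the series' design text gives 3 mice a group. Mice of the CIE+IL17 Ab group were exposed to chronic intermittent ethanol (CIE) and received an antibody against interleukin 17A (IL-17A). Mice of the CIE+IgG group had the same exposure and received control IgG, and mice of the Air+IgG group breathed air and received control IgG. No group without an antibody was analysed here. Strain, sex, age, antibody dose, antibody isotype and the length of exposure are not given in the labels.

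Fc receptors are cell-surface proteins through which cells sense IgG that has bound a target. Fcgr3 encodes FcγRIII, a low-affinity activating receptor, which reaches the membrane and signals through the common γ chain encoded by Fcer1g. The γ chain binds no IgG itself and carries an activation motif that recruits the kinase Syk. Fcgr2b encodes FcγRIIB, the inhibitory receptor of the family, whose tail recruits the phosphatase SHIP1, the product of Inpp5d. Fcgrt encodes the heavy chain of the neonatal Fc receptor (FcRn), which pairs with β2-microglobulin and returns endocytosed IgG and albumin to the cell surface, sparing them from lysosomes. In brain, the γ chain and the activating receptors are known from microglia, and FcRn is known from the endothelium of brain vessels and from choroid plexus.

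Fcgr3 and Fcgr2b lie near each other on mouse chromosome 1 and share much of the sequence that encodes their IgG-binding part, so the split of reads between them limits both measurements. In the GRCm38 build with GENCODE M21 annotation, Fcgr3 spans chr1:171051174-171064935 and Fcgr2b spans chr1:170958617-170976547, both on the minus strand. A gap-free alignment of 475 coding bases was 97.3% identical. The following stretches are shown because they contain the longest identical run, of 129 bases. They were read 5′ to 3′ on the coding strand across coding exons 3 and 4 of each gene (chr1:171054018-171057814 for Fcgr3 and chr1:170966525-170968103 for Fcgr2b, introns left out). Capitals mark the 4 bases of 300 at which the genes differ.
Fcgr3, coding bases 241 to 540: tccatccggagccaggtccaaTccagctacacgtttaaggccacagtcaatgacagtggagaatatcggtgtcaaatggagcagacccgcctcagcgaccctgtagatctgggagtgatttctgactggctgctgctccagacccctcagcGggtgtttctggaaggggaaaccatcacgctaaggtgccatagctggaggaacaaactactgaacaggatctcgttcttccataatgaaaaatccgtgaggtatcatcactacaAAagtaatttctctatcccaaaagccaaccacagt
Fcgr2b, coding bases 256 to 555: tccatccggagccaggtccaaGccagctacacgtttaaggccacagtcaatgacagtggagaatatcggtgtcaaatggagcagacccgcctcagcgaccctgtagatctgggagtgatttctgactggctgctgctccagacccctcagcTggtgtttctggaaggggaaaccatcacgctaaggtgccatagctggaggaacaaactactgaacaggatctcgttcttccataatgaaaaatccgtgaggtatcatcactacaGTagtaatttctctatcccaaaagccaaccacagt
The last 60 coding bases of each gene, which encode the ends of their cytoplasmic tails, fall outside this stretch and have no such likeness (chr1:171051671-171051730 for Fcgr3 and chr1:170961017-170961076 for Fcgr2b).
Fcgr3, coding bases 742 to 801: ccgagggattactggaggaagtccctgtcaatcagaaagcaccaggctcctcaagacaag
Fcgr2b, coding bases 961 to 1020: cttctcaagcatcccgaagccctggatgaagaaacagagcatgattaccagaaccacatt
Of all windows of 50 coding bases, 22.1% in Fcgr3 and 17.1% in Fcgr2b occurred unchanged in the other gene. No such window of Fcgrt or Fcer1g was shared with any of the other receptor genes. The estimated counts of Fcgr3 and Fcgr2b had decimals in 9 of 9 libraries and those of Fcgrt and Fcer1g in 0 of 9, where 27.1% of all values in the table had decimals. Expected counts take decimals where a read is divided between places it could come from. Fcgrt spans chr7:45092990-45103851 and Fcer1g spans chr1:171229572-171234365, both on the minus strand. Gm38204 and Gm45669 overlap Fcgr2b and Fcgrt on the opposite strand, Mir6546 lies in Fcgr3 on its own strand, and whether counting kept the strands apart is not given in the labels. Because of the shared sequence, Fcgr3 and Fcgr2b were also tested as a sum.

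Libraries differed in ways the groups do not explain, and some marker genes moved with a group. Levels are given as CPM, the counts of a gene divided by the library total and set to a common total, scaled between libraries by the trimmed mean of M-values (TMM). CIE+IL17 Ab replicate 1 and Air+IgG replicate 2 were rich in Lars2 reads and held 495056 and 593544 counts of Lars2, against 301 to 2167 in the other 7 libraries. All 10 markers of CA1 pyramidal neurons, a cell type that defines the hippocampus, were in the table, and their summed level was 168 to 306 CPM in CIE+IL17 Ab libraries, 495 to 732 CPM in CIE+IgG libraries and 696 to 779 CPM in Air+IgG libraries. The summed level of 14 thalamus and habenula markers was 1089 to 2535 CPM in CIE+IL17 Ab libraries, 319 to 668 CPM in CIE+IgG libraries and 287 to 366 CPM in Air+IgG libraries. Of these 14 genes, 10 rose in CIE+IL17 Ab against CIE+IgG (1.78% of all genes were called higher there) and 13 in CIE+IL17 Ab against Air+IgG (6.83%), at an edgeR adjusted p under 0.05. Of the 10 CA1 genes, 6 and 7 fell (1.41% and 6.71% of all genes were called lower). Their part in the differences of the receptor genes was not tested. Choroid plexus markers (12 genes) summed to 72.6 to 7319 CPM in CIE+IL17 Ab libraries, 3098 to 5806 CPM in CIE+IgG libraries and 526 to 3869 CPM in Air+IgG libraries, with the lowest sum of all in CIE+IL17 Ab replicate 1.

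All 4 genes were detected in every library, at low to moderate levels. Library totals ran from 7372658 to 11894628 counts, and the genes drew on 92 to 196 counts for Fcgrt, 45 to 109 for Fcgr3, 29 to 65 for Fcer1g and 11 to 37 for Fcgr2b. Per kilobase of annotated exon, the level over 9 libraries was 7.24 ± 0.81 CPM for Fcgrt, 4.79 ± 1.07 CPM for Fcer1g, 4.33 ± 0.87 CPM for Fcgr3 and 0.403 ± 0.104 CPM for Fcgr2b (SD). On that scale the ranges of Fcer1g (3.5 to 6.93) and Fcgr3 (3.38 to 5.95) overlapped, that of Fcgrt (6.08 to 8.64) overlapped the upper end of Fcer1g, and that of Fcgr2b (0.206 to 0.557) lay below all others. The value of Fcgr2b depends on its 5.79 kb of exon, the union of all annotated transcripts, against 1.74 kb for Fcgr3. Over the 9 libraries the coefficient of variation was smallest for Fcgrt (11.2%) and largest for Fcgr2b (25.7%).

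**Figure D1:**
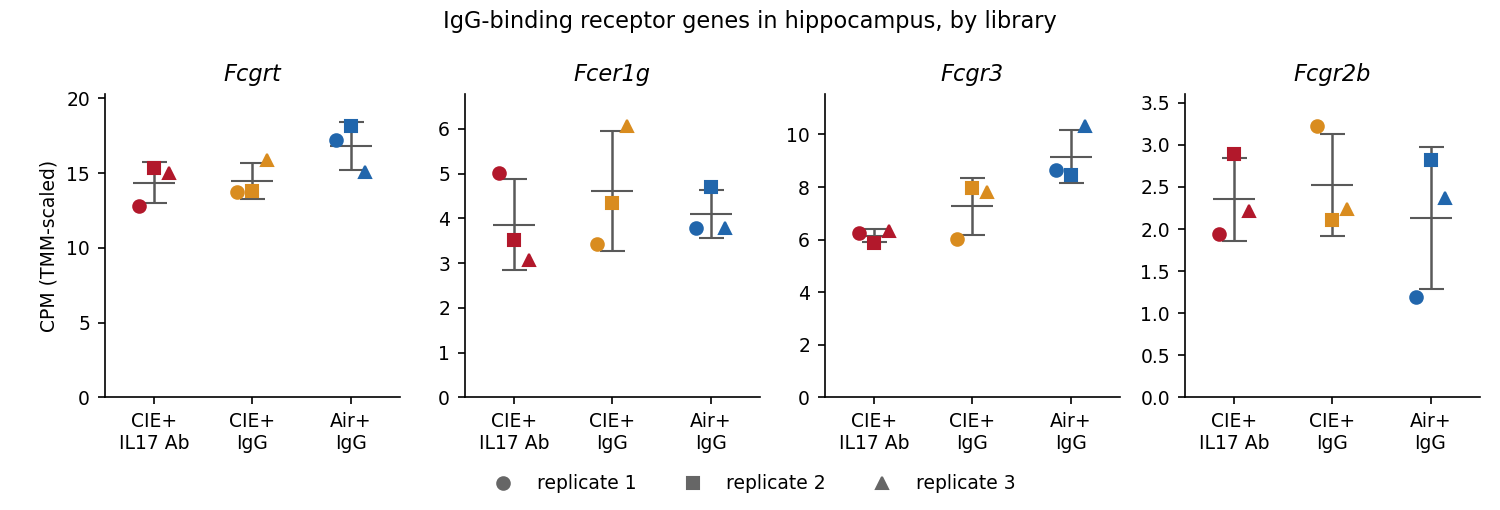
TMM-scaled CPM of the 4 receptor genes in each hippocampal library, with the mean and SD of each group (n = 3), on linear axes that start at 0. The CIE+IL17 Ab and CIE+IgG libraries of Fcgr3 all lie below the 3 Air+IgG libraries, and the groups of Fcer1g and Fcgr2b overlap.

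None of the 4 genes passed the test in any of the 3 comparisons, which used edgeR's quasi-likelihood F-test with Benjamini-Hochberg adjustment over 14696 genes. With the IL-17A antibody set against control IgG in ethanol-exposed mice, 0 of 4 had an adjusted p under 0.05, against 3.18% of all genes tested. With ethanol set against air under control IgG, 0 of 4 passed, against 0% of all genes (0 of 14696, where 406 had an unadjusted p under 0.05 and DESeq2 called 6). With ethanol and antibody set against air, 0 of 4 passed, against 13.5% of all genes. At an unadjusted p under 0.05 the members numbered 0, 0 and 1 in these comparisons, against 22.3%, 2.76% and 32% of all genes. DESeq2 called 0, 0 and 1 of the 4, against 10.1%, 0.0408% and 19% of all genes. The member counted was Fcgr3 in both cases. The first and last comparisons share the CIE+IL17 Ab libraries, and each group enters 2 comparisons, so the values set side by side are not independent.

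**Figure D2:**
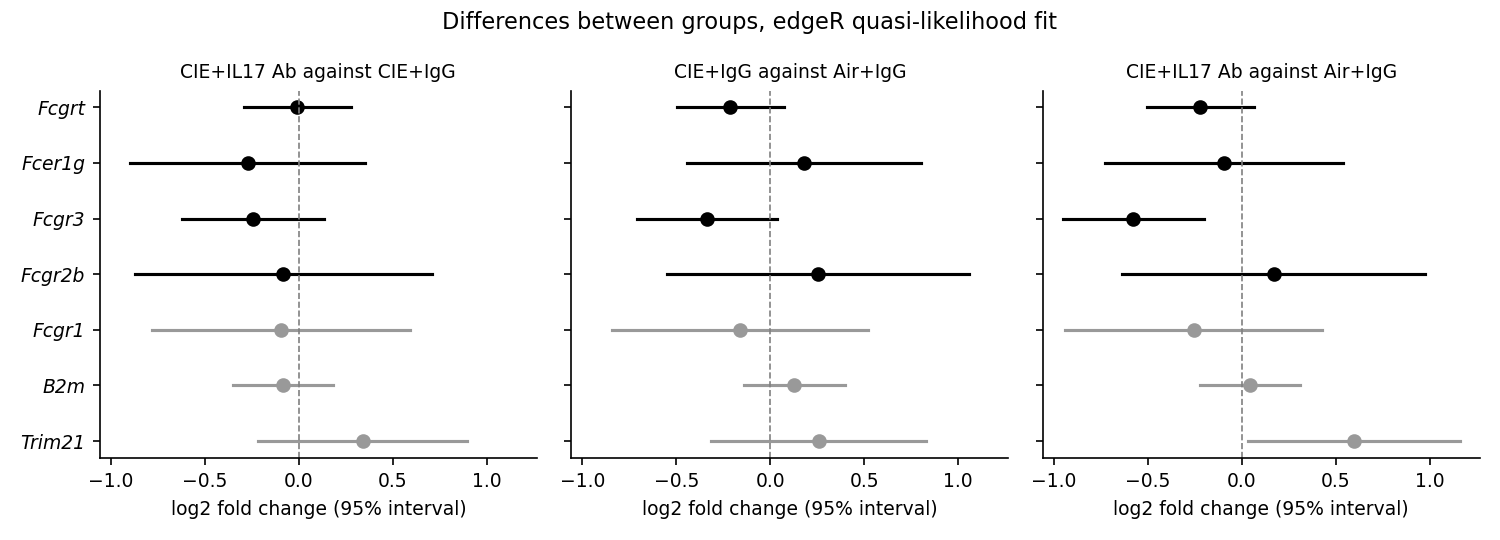
Log2 fold changes with 95% intervals from the edgeR fit for the 4 receptor genes (black) and for Fcgr1, B2m and Trim21 (grey), in the 3 comparisons. Among the receptor genes the interval lies wholly below 0 for Fcgr3 in CIE+IL17 Ab against Air+IgG, where it runs from -0.95 to -0.20.

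Fcgr3, the activating receptor, had the largest difference of the set. It stood at 6.25, 5.87 and 6.33 CPM in CIE+IL17 Ab libraries, at 6.01, 7.96 and 7.83 CPM in CIE+IgG libraries, and at 8.67, 8.47 and 10.3 CPM in Air+IgG libraries. Every library of both ethanol-exposed groups lay below every air library, and the antibody group overlapped the CIE+IgG group at its lowest library. For CIE+IL17 Ab against Air+IgG the log2 fold change was -0.58 (SE 0.17, 95% interval -0.95 to -0.20, 0.670-fold), with an adjusted p of 0.0509 in edgeR and 0.0498 in DESeq2, on either side of the threshold. Libraries that do not overlap, with the antibody group lower, occurred for 18.1% of all genes in that comparison. In CIE+IgG against Air+IgG the log2 fold change was -0.33 (-0.71 to 0.04), with an edgeR adjusted p of 0.9997, and 4.8% of all genes were lower without overlap. The value in CIE+IL17 Ab against CIE+IgG was -0.24 (-0.62 to 0.14), with an adjusted p of 0.439.

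Fcgr3 did not pass in edgeR under any alternative, and its estimate stayed below 0 in all of them. Leaving out each library in turn gave log2 fold changes of -0.64 to -0.49 for CIE+IL17 Ab against Air+IgG, with adjusted p-values of 0.0575 to 0.15. Among the 6 libraries with label numbers 54 to 60, a possible batch whose meaning the labels do not state, it was -0.45 (SE 0.23, edgeR adjusted p 0.361). The 3 libraries numbered 37 to 39 hold 1 of each group and gave no test. With the counts of Fcgr2b added to those of Fcgr3, an alternative chosen after the data were seen, the same comparison gave -0.41 (SE 0.14, edgeR adjusted p 0.078). The summed row gave -0.21 in CIE+IgG against Air+IgG and -0.20 in CIE+IL17 Ab against CIE+IgG, with adjusted p-values of 0.9997 and 0.428.

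Fcer1g, the γ chain that FcγRIII needs, showed no difference that exceeded its spread. It stood at 5.00, 3.52 and 3.06 CPM in CIE+IL17 Ab libraries, at 3.44, 4.33 and 6.06 CPM in CIE+IgG libraries, and at 3.79, 4.71 and 3.79 CPM in Air+IgG libraries. The highest library belonged to CIE+IgG and the lowest to CIE+IL17 Ab, and both ethanol-exposed groups spread across the whole range of the air group. The fold of CIE+IL17 Ab over CIE+IgG was 0.828 (95% interval 0.537 to 1.28). The fold of CIE+IgG over Air+IgG was 1.13 (0.735 to 1.75), and that of CIE+IL17 Ab over Air+IgG was 0.938 (0.605 to 1.45). A doubling lies outside all 3 intervals.

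Fcgr2b, the inhibitory receptor, was the least abundant and the least precisely measured. It stood at 1.95, 2.90 and 2.21 CPM in CIE+IL17 Ab libraries, at 3.22, 2.11 and 2.24 CPM in CIE+IgG libraries, and at 1.19, 2.82 and 2.37 CPM in Air+IgG libraries. Air+IgG replicate 1 was the lowest library, with 11 counts, and all groups overlapped. The fold of CIE+IL17 Ab over CIE+IgG was 0.944 (95% interval 0.546 to 1.63). The fold of CIE+IgG over Air+IgG was 1.19 (0.683 to 2.08), and that of CIE+IL17 Ab over Air+IgG was 1.13 (0.644 to 1.97).

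The balance of the activating over the inhibitory receptor was taken within each library as the difference in log2 CPM (prior count 2) between Fcgr3 and Fcgr2b. It was 1.58, 0.97 and 1.43 in CIE+IL17 Ab libraries, 0.86, 1.82 and 1.72 in CIE+IgG libraries, and 2.66, 1.52 and 2.03 in Air+IgG libraries. The widest gap was in Air+IgG replicate 1, and the groups overlapped in all 3 comparisons. The mean difference was -0.74 for CIE+IL17 Ab against Air+IgG, -0.61 for CIE+IgG against Air+IgG and -0.14 for CIE+IL17 Ab against CIE+IgG. Two-sided exact permutation tests of 3 libraries against 3, which cannot go below 0.1, gave p = 0.2, 0.3 and 0.6 (adjusted over the 3 tests 0.45, 0.45 and 0.6). A read assigned to the wrong gene of the pair changes both terms of this balance.

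Fcgrt, the FcRn heavy chain, was the most abundant member and varied least. It stood at 12.8, 15.3 and 15.0 CPM in CIE+IL17 Ab libraries, at 13.8, 13.8 and 15.9 CPM in CIE+IgG libraries, and at 17.2, 18.2 and 15.1 CPM in Air+IgG libraries. Air+IgG replicate 3 lay among the ethanol-exposed libraries, and the other air libraries lay above them all. The fold of CIE+IL17 Ab over CIE+IgG was 0.995, with a 95% interval of 0.817 to 1.21. The fold of CIE+IgG over Air+IgG was 0.863 (0.709 to 1.05), and that of CIE+IL17 Ab over Air+IgG was 0.858 (0.705 to 1.05, edgeR adjusted p 0.264). Without the 2 Lars2-rich libraries the last log2 fold change was -0.09 in place of -0.22. B2m, which encodes the FcRn light chain β2-microglobulin that MHC class I molecules also use, averaged 67.3 CPM in CIE+IL17 Ab libraries, 71.3 CPM in CIE+IgG libraries and 65.2 CPM in Air+IgG libraries. Its log2 fold changes lay between -0.09 and 0.13 in the 3 comparisons, with edgeR adjusted p-values of 0.734 or more.

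**Figure D3:**
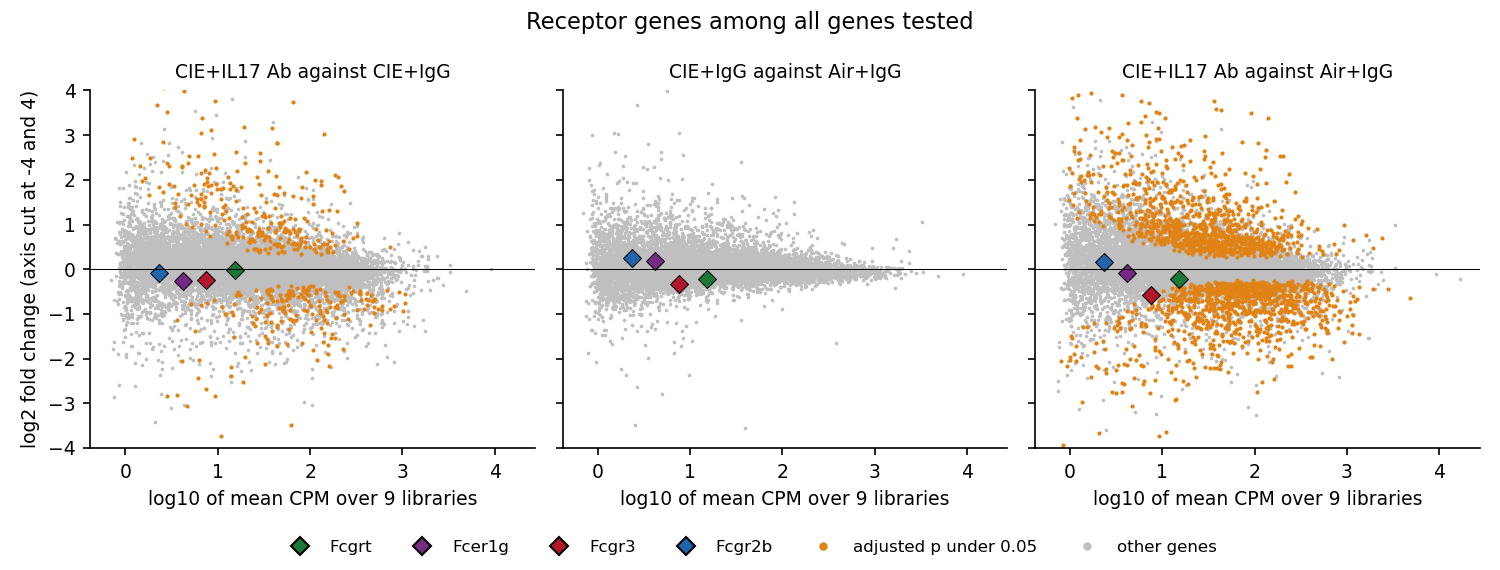
Log2 fold change against log10 of the mean CPM over 9 libraries for all genes tested in each comparison, with genes at an adjusted p under 0.05 in orange and the 4 receptor genes as diamonds. The receptor genes sit in the lower part of the expression range among genes that were not called, and Fcgr3 borders the called genes in CIE+IL17 Ab against Air+IgG.

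Microglial marker genes had a lower summed level in the antibody group than in both other groups. The summed level of 20 homeostatic microglia genes was 487 to 512 CPM in CIE+IL17 Ab libraries, 587 to 629 CPM in CIE+IgG libraries and 562 to 639 CPM in Air+IgG libraries. In CIE+IL17 Ab against CIE+IgG, 19 of the 20 log2 fold changes were below 0 (median -0.29), against 47.8% of all genes tested (median 0.01), and 2 of 20 fell, against 1.41% of all genes called lower. Those were P2ry12, a purinergic receptor of resting microglia (-0.50, edgeR adjusted p 0.0436), and Csf1r, the receptor for colony-stimulating factor 1 (-0.39, 0.0418). Against Air+IgG, 18 of 20 in the antibody group were below 0 (median -0.26), against 48.4% of all genes (median 0.01), and 3 fell, P2ry12, Csf1r and the microglial membrane protein gene Tmem119, against 6.71% of all genes called lower. In CIE+IgG against Air+IgG the median was 0.02, with 7 of 20 below 0 and none called. In bulk tissue, fewer microglia and less RNA of these genes per cell cannot be told apart. The summed thalamus and habenula markers were also higher in CIE+IL17 Ab libraries, and the summed CA1 markers lower. Their part in the levels of the microglial genes was not tested.

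Set against the mean log2 CPM of those 20 genes in the same library, Fcgr3 overlapped between the ethanol-exposed groups and was lower in antibody than in air libraries. The difference of Fcgr3 from the microglial mean was -1.41, -1.51 and -1.48 in CIE+IL17 Ab libraries, -1.75, -1.31 and -1.49 in CIE+IgG libraries, and -1.17, -1.38 and -0.94 in Air+IgG libraries. All 3 antibody libraries lay below all 3 air libraries by this measure, and the CIE+IgG libraries overlapped both. The share of all genes that separate in this way was not determined. The mean difference was 0.05 for CIE+IL17 Ab against CIE+IgG, -0.35 for CIE+IgG against Air+IgG and -0.30 for CIE+IL17 Ab against Air+IgG, with two-sided exact permutation p = 0.8, 0.2 and 0.1, and 0.857, 0.429 and 0.3 after adjustment over 15 such tests. Relative to the same genes, Fcer1g differed by 0.04, 0.11 and 0.15 and Fcgr2b by 0.19, 0.25 and 0.44 in these comparisons, all with overlapping libraries and adjusted p-values from 0.833 to 0.9.

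Fcgrt was set against the same microglial genes and against 16 genes of brain endothelium. Relative to microglial genes it was -0.41, -0.16 and -0.26 in CIE+IL17 Ab libraries, -0.58, -0.53 and -0.50 in CIE+IgG libraries, and -0.20, -0.30 and -0.41 in Air+IgG libraries. The CIE+IgG libraries lay below both other groups without overlap, with mean differences of 0.26 for CIE+IL17 Ab against CIE+IgG and -0.23 for CIE+IgG against Air+IgG. The log2 fold changes of Fcgrt itself in these comparisons were -0.0074 and -0.21. The microglial mean was 4.11, 4.12 and 4.19 in CIE+IL17 Ab libraries. It was 4.39, 4.34 and 4.50 in CIE+IgG libraries and 4.32, 4.50 and 4.34 in Air+IgG libraries. Relative to endothelial genes Fcgrt was -0.91, -0.79 and -0.64 in CIE+IL17 Ab libraries, -0.66, -0.54 and -0.49 in CIE+IgG libraries, and -0.23, -0.40 and -0.39 in Air+IgG libraries. Here the air libraries lay above both ethanol-exposed groups without overlap, with mean differences of -0.44 for CIE+IL17 Ab against Air+IgG and -0.22 for CIE+IgG against Air+IgG. Each of these 4 differences had the smallest p that 3 against 3 libraries allow in the exact permutation test, 0.1, and an adjusted p of 0.3. The share of all genes whose libraries separate by these measures was not determined. The endothelial genes themselves had a median log2 fold change of 0.20 in CIE+IL17 Ab against Air+IgG, with 15 of 16 above 0, and 1 rose, Slc2a1, the glucose transporter of the blood-brain barrier (0.50, edgeR adjusted p 0.0141), against 6.83% of all genes called higher. In CIE+IL17 Ab against CIE+IgG Slc2a1 was at 0.34 and did not pass in edgeR (0.0683), but it passed in DESeq2 (0.0173) and without CIE+IL17 Ab replicate 3 (0.0374). The endothelial median in that comparison was 0.24, with 1 of 16 below 0, against 47.8% of all genes. Fcgrt relative to endothelial genes differed by -0.21 there, with overlapping libraries (exact permutation p = 0.2, adjusted 0.429). In CIE+IgG against Air+IgG the endothelial median was 0.02, with 7 of 16 below 0. The summed level of the endothelial genes was 510 to 576 CPM in CIE+IL17 Ab libraries, 433 to 475 CPM in CIE+IgG libraries and 408 to 512 CPM in Air+IgG libraries.

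**Figure D4:**
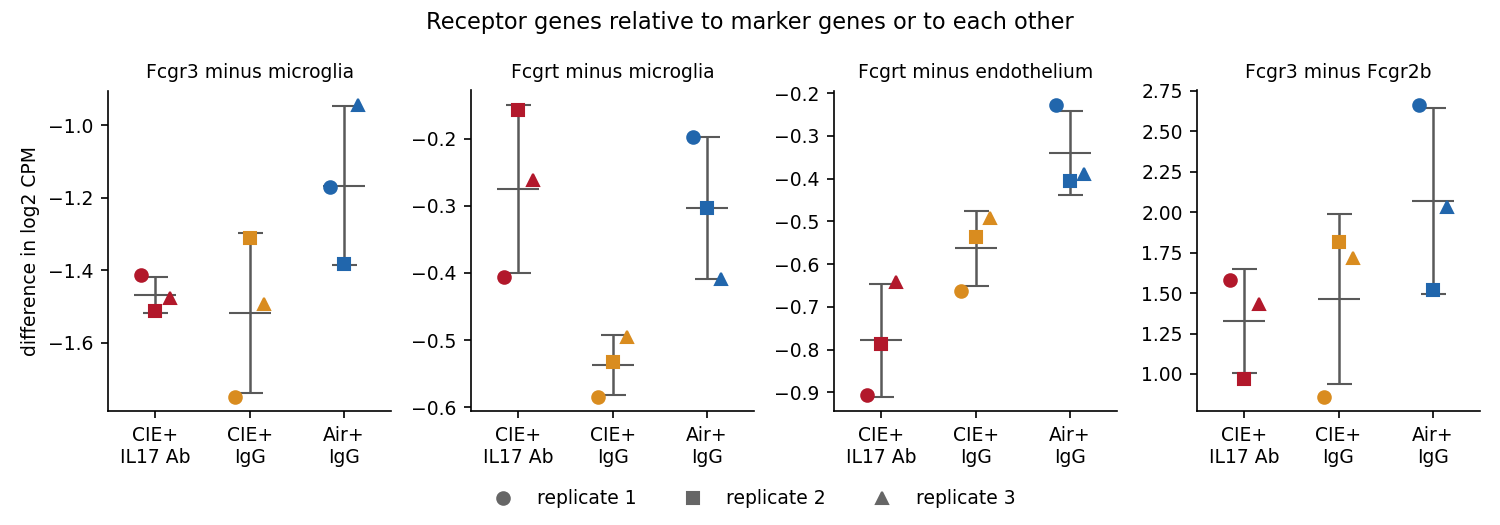
Difference in log2 CPM within each library between a receptor gene and the mean of 20 microglial or 16 endothelial marker genes, or between Fcgr3 and Fcgr2b, with the mean and SD of each group (n = 3). Fcgrt minus endothelium lies between -0.91 and -0.49 in the ethanol-exposed libraries and between -0.40 and -0.23 in the air libraries.

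Markers of other cell types were covered unevenly. Of 10 macrophage markers of brain borders 4 were tested, with none called in any comparison by edgeR or DESeq2. All 4 were below 0 in CIE+IgG against Air+IgG (median log2 fold change -0.86, against 52% of all genes below 0), and none was below 0 in CIE+IL17 Ab against CIE+IgG (median 0.63, against 47.8%). In CIE+IL17 Ab against Air+IgG all 4 were below 0 (median -0.29, against 48.4%). F13a1, a transglutaminase gene of such macrophages, averaged 3.33 CPM in CIE+IL17 Ab libraries, 1.90 CPM in CIE+IgG libraries and 5.00 CPM in Air+IgG libraries, and its edgeR adjusted p in CIE+IgG against Air+IgG was 0.790. Of 12 markers of blood monocytes, neutrophils and mast cells only Kit was in the table, and of 12 markers of lymphocytes and natural killer cells 0 were, so those cells were not analysed here. The 5 red blood cell genes summed to 30.5 to 94.4 CPM in CIE+IL17 Ab libraries, 20.7 to 53.6 CPM in CIE+IgG libraries and 20.04 to 67.3 CPM in Air+IgG libraries, with none called. Meningeal fibroblast genes had negative median log2 fold changes in both comparisons with Air+IgG. Of 11 tested, 9 were below 0 in CIE+IL17 Ab against Air+IgG (median -0.90, against 48.4% of all genes below 0) and 10 in CIE+IgG against Air+IgG (median -0.9993, against 52%). In edgeR 2 of the 11 fell in CIE+IL17 Ab against Air+IgG, against 6.71% of all genes called lower, and none was called in the other comparisons. DESeq2 called 4 lower there and 2 lower in CIE+IgG against Air+IgG. Of the 12 choroid plexus genes, 0 were below 0 in CIE+IL17 Ab against Air+IgG (median 0.94) and 0 in CIE+IgG against Air+IgG (median 1.01). In CIE+IL17 Ab against CIE+IgG 10 of these 12 were below 0 (median -0.08). edgeR called none of them in any comparison. The part of meningeal and choroid plexus genes in the differences of the receptor genes was not tested.

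Among the remaining IgG receptors and partners, no gene passed the edgeR test, and DESeq2 called 1, Fcrls. With the members included, 9 of 14 such genes were tested, and Fcgr4, the other activating receptor of this class, was not analysed here. Fcgr1, the high-affinity activating receptor, averaged 1.95 CPM in CIE+IL17 Ab libraries, 2.08 CPM in CIE+IgG libraries and 2.34 CPM in Air+IgG libraries, with overlapping groups and 12 to 30 counts a library. Trim21, a cytosolic receptor for antibodies that enter a cell on a pathogen, stood at 4.59, 5.95 and 3.48 CPM in CIE+IL17 Ab libraries and at 3.47, 2.69 and 3.12 CPM in Air+IgG libraries, without overlap (log2 fold change 0.60, edgeR adjusted p 0.138). Libraries that do not overlap, with the antibody group higher, occurred for 17.3% of all genes. Fcrls, a microglial gene of the Fc receptor-like family, averaged 10.9 CPM in CIE+IL17 Ab libraries, 15.2 CPM in CIE+IgG libraries and 17.5 CPM in Air+IgG libraries (CIE+IL17 Ab against Air+IgG -0.66, edgeR adjusted p 0.0594, DESeq2 adjusted p 0.0254). Without CIE+IL17 Ab replicate 3 the edgeR adjusted p of Fcrls was 0.0299. Fcrls is also among the 20 homeostatic microglia genes.

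Downstream of the activating receptors, 26 of 28 listed genes were tested. The comparison of CIE+IL17 Ab with CIE+IgG had 2 that rose and 0 that fell, and that with Air+IgG had 3 that rose and 0 that fell, in edgeR. Of all genes, 1.78% and 6.83% were called higher in these comparisons. Log2 fold changes were below 0 for 16 and 18 of the 26, against 47.8% and 48.4% of all genes. Vav2 and Vav3 rose in both. Vav1, also on the list, was below 0 in both and not called (-0.31 and -0.40, edgeR adjusted p 0.520 and 0.316). Vav3 stood at 67.0, 121 and 70.1 CPM in CIE+IL17 Ab libraries, at 20.9, 22.9 and 17.2 CPM in CIE+IgG libraries, and at 15.7, 36.3 and 18.0 CPM in Air+IgG libraries. Vav2 averaged 28.6 CPM in CIE+IL17 Ab libraries, 14.3 CPM in CIE+IgG libraries and 12.6 CPM in Air+IgG libraries. Prkcd, which encodes protein kinase Cδ and is also among the 14 thalamus and habenula markers, rose in CIE+IL17 Ab against Air+IgG (2.82, edgeR adjusted p 0.0347). It stood at 55.3, 357 and 270 CPM in CIE+IL17 Ab libraries and at 26.1, 38.2 and 32.5 CPM in Air+IgG libraries. The CIE+IgG libraries, at 65.9, 26.1 and 106 CPM, overlapped both groups. Syk, the kinase recruited by the γ chain, stood at 3.75, 3.13 and 3.16 CPM in CIE+IL17 Ab libraries and at 4.51, 9.13 and 5.22 CPM in CIE+IgG libraries, without overlap (log2 fold change -0.91, 95% interval -1.60 to -0.22, edgeR adjusted p 0.127). Libraries that do not overlap, with the antibody group lower, occurred for 13.2% of all genes in that comparison. Leaving out each library in turn gave log2 fold changes of -1.10 to -0.55 for Syk there. In Air+IgG libraries Syk stood at 4.01, 5.92 and 6.25 CPM (CIE+IL17 Ab against Air+IgG -0.69, edgeR adjusted p 0.157). Whether the thalamic share of a library moves Vav2, Vav3 and Prkcd was not tested, nor was the part of the lower microglial genes in the level of Syk.

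On the inhibitory side, 9 of 13 listed genes were tested, and in CIE+IL17 Ab against Air+IgG 1 rose and 1 fell, against 6.83% of all genes called higher and 6.71% called lower. Csk, a kinase that restrains Src-family kinases, rose (0.48, edgeR adjusted p 0.0398). Sirpa, an inhibitory receptor for CD47 that neurons also express, fell to a mean of 262 CPM in CIE+IL17 Ab libraries, against 363 CPM in Air+IgG libraries (-0.47, edgeR adjusted p 0.0208). In CIE+IL17 Ab against CIE+IgG Sirpa was at -0.37 and did not pass in edgeR (0.0725). Its adjusted p was 0.00966 by DESeq2, 0.0458 in edgeR blocked on the number in the labels and 0.0452 in edgeR without CIE+IgG replicate 3. The CA1 markers were also lower in CIE+IL17 Ab libraries, and their part in the level of Sirpa was not tested. Inpp5d, the SHIP1 gene through which FcγRIIB acts, averaged 15.1 CPM in CIE+IL17 Ab libraries, 19.95 CPM in CIE+IgG libraries and 18.1 CPM in Air+IgG libraries. Its libraries did not overlap in CIE+IL17 Ab against CIE+IgG, where its log2 fold change was -0.41 (edgeR adjusted p 0.148). In that comparison 13.2% of all genes were lower without overlap. Ptpn6, the SHP-1 phosphatase gene, averaged 3.25 CPM in CIE+IL17 Ab libraries, 4.50 CPM in CIE+IgG libraries and 3.27 CPM in Air+IgG libraries, and was not called in any comparison (edgeR adjusted p 0.370 or more).

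Of 14 adaptors that carry activation motifs and their receptors, 6 were tested and none was called. In CIE+IL17 Ab against CIE+IgG 6 of 6 were below 0 (median -0.23, against 47.8% of all genes). Against Air+IgG, 5 of 6 were below 0 in the antibody group (median -0.22, against 48.4%) and 4 of 6 in CIE+IgG (median -0.04, against 52%). Tyrobp, the adaptor that serves Trem2 as the γ chain serves FcγRIII, averaged 7.33 CPM in CIE+IL17 Ab libraries, 9.10 CPM in CIE+IgG libraries and 9.82 CPM in Air+IgG libraries (CIE+IL17 Ab against Air+IgG -0.42, edgeR adjusted p 0.159). Itgam, a chain of complement receptor 3, gave -0.33 in the same comparison (0.0632). Of 13 genes tested for FcRn assembly and trafficking, 1 fell in CIE+IL17 Ab against Air+IgG, Calr, a chaperone of the endoplasmic reticulum (-0.28, edgeR adjusted p 0.0416), against 6.71% of all genes called lower. edgeR called none of the 13 in the other comparisons, and DESeq2 also called Calr in CIE+IL17 Ab against CIE+IgG (-0.23, adjusted p 0.027).

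Most calls on these accompanying genes were close to the threshold, and leaving out 1 library often ended them while the log2 fold changes moved less. Without Air+IgG replicate 3, no gene at all was called in CIE+IL17 Ab against Air+IgG, so the calls on P2ry12, Csf1r, Tmem119, Slc2a1, Vav2, Vav3, Prkcd, Csk, Sirpa and Calr ended, with adjusted p-values from 0.0537 (Vav2) to 0.112 (Csk). The log2 fold change was then 1.14 in place of 1.18 for Vav2 and 0.44 in place of 0.48 for Csk. Without CIE+IgG replicate 1, no gene was called in CIE+IL17 Ab against CIE+IgG, and the adjusted p-values of P2ry12, Csf1r, Vav2 and Vav3 were 0.191, 0.182, 0.120 and 0.149, at log2 fold changes of -0.45, -0.39, 1.11 and 2.10. Without CIE+IL17 Ab replicate 2 the same 4 calls ended too (0.154, 0.149, 0.123 and 0.103), as did those of CIE+IL17 Ab against Air+IgG other than Vav2, with adjusted p-values up to 0.136. The other libraries whose omission ended calls in CIE+IL17 Ab against CIE+IgG were CIE+IgG replicate 2 and Air+IgG replicates 1 and 3 (all 4 genes), CIE+IL17 Ab replicate 1 (P2ry12 and Csf1r) and Air+IgG replicate 2 (P2ry12). Between CIE+IL17 Ab and Air+IgG, leaving out any of the remaining libraries ended the call of at least 1 of Csk, Tmem119, Calr, Prkcd, Sirpa, Vav3, Slc2a1, P2ry12 and Csf1r, with adjusted p-values up to 0.117. A fit of only the 2 groups compared, with all their libraries, ended the calls of P2ry12, Csf1r, Vav2 and Vav3 in CIE+IL17 Ab against CIE+IgG (0.119, 0.120, 0.112 and 0.0896). It also ended those of Csf1r, Tmem119, Csk and Calr in CIE+IL17 Ab against Air+IgG (0.0539, 0.0787, 0.0804 and 0.0781). The log2 fold changes of these called genes stayed on their side of 0 in all these fits.

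The genes whose levels followed each member most closely over the 9 libraries differed from member to member. Pearson's r of log2 CPM was taken against 14544 genes, as a description over libraries that share groups. How high the closest r runs for genes outside the set was not tested. Fcgr3 was closest to Scg3 (0.98), Mrpl19 (0.96), Rpl12 (0.95), B3galt6 (0.95) and Lpin2 (0.94). Fcgrt was closest to Ogn (0.93), Alx4 (0.92), Epc1 (0.92), Slc26a2 (0.90) and Usp16 (0.90). Fcer1g was closest to Yipf6 (0.92), Slc40a1 (0.90), Ppp1r15b (0.90), Zfp266 (0.89) and Picalm (0.89), and Fcgr2b to Psmc3ip (0.91), Zfp935 (0.90), Trmt10a (0.87), Timp1 (0.86) and Commd2 (0.86). Between members r ran from -0.36 for Fcgr3 with Fcgr2b, which share reads, to 0.49 for Fcgr3 with Fcgrt, and was 0.26 for Fcgr3 with its partner chain Fcer1g. With the mean of the microglial genes r was 0.57 for Fcgr3, 0.52 for Fcgrt, 0.44 for Fcer1g and 0.13 for Fcgr2b. With the mean of the endothelial genes r was -0.69 for Fcgr3, 0.45 for Fcgr2b, 0.02 for Fcgrt and 0.01 for Fcer1g.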

How the data were processed

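The authors deposited expected counts per gene, as estimated by their pipeline, and the submitters' processing notes name RSEM 1.3.0, STAR 2.5.1a and GRCm38. The annotation release and filters before deposit were not given in the sources used here. Each of the 14779 genes has at least 6 counts in 3 libraries. Symbols came from GENCODE M21 (14628 matched). Counts were rounded, filtered with filterByExpr (minimum count 10, leaving 14696 genes) and fitted in edgeR 4.0.16 (R 4.3.3) with TMM and glmQLFit (robust), with a mean per group over 9 libraries. Genes with an adjusted p under 0.05 were called. The fit was tested on simulated counts. Alternatives included DESeq2 1.42.0. Replicate libraries all differed by more than sampling noise (chi-square per degree of freedom 4.26 or more). Groups follow the sample titles. The members and gene lists were chosen with earlier results of these data known. From the lists, genes called in any comparison or with the smallest p-values, and a few by role, could be named. F13a1 and Vav1 were chosen after their values were seen. Permutation tests used log2 CPM with a prior count of 2.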

Additional observations from a re-analysis of the deposited data

How the results depend on the processing

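No member of the set passed the edgeR test under any alternative, and Fcgr3 in CIE+IL17 Ab against Air+IgG was called in DESeq2 alone (-0.58, adjusted p 0.0498). The count of genes called was the least stable result. In CIE+IL17 Ab against CIE+IgG it was 468, against 1481 in DESeq2, 1 with only the 2 groups compared, 776 with the label number as a block, 1 in libraries 54 to 60, and 0 to 1313 with 1 library left out. In CIE+IL17 Ab against Air+IgG it was 1990, against 1192 with only the 2 groups compared, 2 in libraries 54 to 60, 1067 without both Lars2-rich libraries, and 0 to 2305 with 1 library left out. In CIE+IgG against Air+IgG it was 0 in edgeR under every setting and 6 in DESeq2. With the replicate number as a block, the counts were 14, 0 and 571 in CIE+IL17 Ab against CIE+IgG, CIE+IgG against Air+IgG and CIE+IL17 Ab against Air+IgG, and Ptpn6 in the last was -0.0257. Same-numbered libraries correlated at -0.27 to 0.25, so the numbers were not taken as pairs.

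Estimates close to 0 changed sign in some settings, and the cause was not tested. In libraries 54 to 60, CIE+IL17 Ab against CIE+IgG gave 0.0094 for Fcgrt, 0.0405 for Fcer1g, 0.0927 for B2m and 0.17 for the balance of Fcgr3 over Fcgr2b, and -0.0841 for Fcgr2b relative to microglial genes. There CIE+IgG against Air+IgG gave -0.12 for Fcer1g, -0.0769 for Fcer1g relative to microglial genes and 0.0237 for P2ry12, and CIE+IL17 Ab against Air+IgG gave -0.0832 for Fcgrt relative to microglial genes. Without both Lars2-rich libraries, CIE+IL17 Ab against CIE+IgG gave 0.0656 for Fcgrt and 0.0294 for Fcgr2b, CIE+IgG against Air+IgG gave 0.27 for Vav3 and 0.0434 for P2ry12, and CIE+IL17 Ab against Air+IgG gave -0.0173 for B2m.

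With 1 library left out, CIE+IL17 Ab against CIE+IgG ranged over -0.0626 to 0.0656 for Fcgrt, -0.28 to 0.13 for Fcgr2b, -0.28 to 0.13 for Fcgr1, -0.19 to 0.0057 for B2m, -0.44 to 0.0432 for the balance, -0.17 to 0.21 for Fcer1g relative to microglial genes and -0.0653 to 0.15 for Fcgr3 relative to them. CIE+IgG against Air+IgG ranged over -0.0724 to 0.35 for Fcer1g, -0.0297 to 0.48 for Fcgr2b, -0.15 to 0.40 for Syk, -0.40 to 0.26 for Vav3, -0.0219 to 0.0709 for Csf1r, -0.10 to 0.0378 for P2ry12, and, relative to microglial genes, -0.0504 to 0.28 for Fcer1g and -0.0439 to 0.42 for Fcgr2b. CIE+IL17 Ab against Air+IgG ranged over -0.30 to 0.0392 for Fcer1g, -0.12 to 0.40 for Fcgr2b, -0.0598 to 0.12 for B2m, -0.30 to 0.22 for Ptpn6, and, relative to microglial genes, -0.0575 to 0.32 for Fcer1g and -0.0303 to 0.094 for Fcgrt. The 11 to 37 counts of Fcgr2b and 29 to 65 of Fcer1g limit what these libraries can show.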
